A study of Drosophila melanogaster with 39 samples.

Results

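The heat shock genes of *Drosophila* encode chaperones, proteins that hold or refold other proteins, and the factor that switches them on. This account covers 9 of them, *Hsp22*, *Hsp23*, *Hsp26*, *Hsp27*, *Hsp83*, *Hsp70Aa*, *Hsp70Ab*, *Hsc70-4* and *Hsf*, out of 18358 annotated genes, and the ChIP-seq peaks within 5 kb of each gene span. Peaks were taken from all 30 deposited lists, and 233 of 136434 peaks overlapped a window. Of these, 92 were peaks of Cul4 with the rabbit antibody, 124 of CP190 and 17 of Su(Hw). None was a peak of Cul4 with the mouse antibody.

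All libraries came from Kc167 cells, an embryonic *Drosophila* cell line, kept at 25 °C and harvested 4 days after transfection with dsRNA. Cells received dsRNA against *cul4*, the scaffold of a Cullin-RING ubiquitin ligase (cul4 kd), dsRNA against *eff*, an E2 ubiquitin-conjugating enzyme (eff kd), or dsRNA against *mcherry*, which has no target in the fly (control). CP190 and Su(Hw), core proteins of the *gypsy* chromatin insulator, and Cul4 (rabbit anti-human Cul4) were each mapped in 3 libraries of every treatment, and a mouse antibody to Cul4 was used on control cells alone, in 3 libraries. The 9 input libraries have no peak list. Both knockdown comparisons used the same control libraries, and in cul4 kd cells the Cul4 antibody was used on cells depleted of its target. The paper reports several bands for its anti-Cul4 antibodies on Western blots, of which the full-length Cul4 band fell after knockdown. Whether the signal left in cul4 kd cells is Cul4 was not tested. Cul4 peaks here mean peaks of the rabbit antibody, unless the mouse antibody is named.

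In flies, heat shock factor binds repeats of a short motif, the heat shock element, in front of heat shock genes. At the inducible genes an RNA polymerase waits shortly after the start site and is released on stress, and GAGA factor keeps several of these promoters open. The small heat shock protein genes stand together in the 67B cluster on chromosome arm 3L, and the *Hsp70Aa* and *Hsp70Ab* pair stands divergently at 87A on 3R between the classical boundary elements scs and scs', where insulation was first studied in flies. *Hsp83*, the Hsp90 gene, and *Hsc70-4*, a constitutive Hsp70, are transcribed without stress.

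The promoters of 6 members are shown because the Cul4 results turn on where a peak starts and ends around them. Each line gives the 200 bases before the start site nearest to the Cul4 summit of control cells, 5′ to 3′ on the strand of the gene, from the RefSeq release 6 (dm6) sequence. Capitals mark the heat shock element core GAANNTTC, which reads the same on both strands. *Hsp23* (chr3L:9381682-9381881, plus strand), *Hsp26* (chr3L:9377376-9377575, minus strand), *Hsp27* (chr3L:9383863-9384062, plus strand), *Hsp83* (chr3L:3193016-3193215, plus strand), *Hsp70Aa* (chr3R:11956545-11956744, minus strand) and *Hsc70-4* (chr3R:15242690-15242889, plus strand) read:
Hsp23: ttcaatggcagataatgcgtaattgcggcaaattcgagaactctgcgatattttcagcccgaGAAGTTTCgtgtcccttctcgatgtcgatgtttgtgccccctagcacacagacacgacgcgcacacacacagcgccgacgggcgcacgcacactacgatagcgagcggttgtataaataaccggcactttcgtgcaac
Hsp26: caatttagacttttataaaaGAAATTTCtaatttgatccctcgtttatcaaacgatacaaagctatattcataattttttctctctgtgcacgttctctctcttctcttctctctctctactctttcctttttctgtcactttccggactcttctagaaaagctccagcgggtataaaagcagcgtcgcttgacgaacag
Hsp27: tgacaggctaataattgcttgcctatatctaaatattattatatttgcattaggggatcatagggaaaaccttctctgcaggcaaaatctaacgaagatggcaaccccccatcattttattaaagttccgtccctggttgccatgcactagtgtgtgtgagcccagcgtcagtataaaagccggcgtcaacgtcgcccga
Hsp83: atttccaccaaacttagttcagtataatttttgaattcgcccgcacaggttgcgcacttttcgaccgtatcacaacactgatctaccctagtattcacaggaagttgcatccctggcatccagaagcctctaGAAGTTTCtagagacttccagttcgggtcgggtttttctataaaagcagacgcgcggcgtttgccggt
Hsp70Aa: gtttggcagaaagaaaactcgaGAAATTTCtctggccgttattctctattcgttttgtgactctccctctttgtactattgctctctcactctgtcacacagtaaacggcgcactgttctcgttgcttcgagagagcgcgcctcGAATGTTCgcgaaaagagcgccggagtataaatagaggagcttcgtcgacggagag
Hsc70-4: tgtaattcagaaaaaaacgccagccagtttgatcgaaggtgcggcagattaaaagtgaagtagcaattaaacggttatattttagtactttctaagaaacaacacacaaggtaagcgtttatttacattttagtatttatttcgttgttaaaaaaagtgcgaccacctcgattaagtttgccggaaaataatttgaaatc

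The core was found in 6 of the 9 members, with 2 matches each in *Hsp22*, *Hsp70Aa* and *Hsp70Ab* and 1 each in *Hsp23*, *Hsp26* and *Hsp83*. It begins 138 bases before the start of *Hsp23*, 180 before that of *Hsp26* and 68 before that of *Hsp83*. These places are those of GAANNTTC alone. Other arrangements of the repeats were not searched, so parts of a heat shock element elsewhere in these windows are not excluded. Of 23697 annotated start sites, 6.13% hold the core in the same 200 bases. The GAGA factor motif GAGAG, searched on both strands and allowed to overlap itself, had 6 matches each in *Hsp26*, *Hsp70Aa* and *Hsp70Ab* and 4 in *Hsp22*, none in the other members, and is in 24.3% of start sites. The short BEAF-32 motif CGATA, also searched on both strands, had 2 matches in *Hsp23* and 1 in *Hsp26*, and is in 34.5%. No match says only that these letters are not in this window.

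The lists held 424 to 9149 peaks. The rabbit Cul4 libraries of eff kd cells stood apart from each other, with 4488, 571 and 424 peaks in libraries 1, 2 and 3, against 4447 to 5355 in control cells. The lowest background in reads that the values imply was 33.2, 19.4 and 4.49 in those eff kd libraries, against 14.2 to 20.6 in control, so that library 1 lay above and library 3 below the control libraries. For CP190 it was 22.8, 12.1 and 6.21 in cul4 kd libraries, against 22.4 to 29.7 in control. For Su(Hw) it was 12.3, 9.35 and 20 in cul4 kd libraries and 10.1 to 27.6 in eff kd libraries, against 21.1 to 21.4 in control. Peaks in the windows rested on 40 to 272 reads at the summit for Cul4 (median 127), 44 to 535 for CP190 (median 210.5) and 64 to 313 for Su(Hw) (median 166), read back from the fold and p of each peak. The precision they give covers counting error only.

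In control cells, rabbit Cul4 sat at the start sites of 6 members and CP190 at 3. A reproducible site, meaning a peak in all 3 control libraries within 1 kb of a start site, was found for rabbit Cul4 at *Hsp23*, *Hsp26*, *Hsp27*, *Hsp83*, *Hsc70-4* and *Hsf*, against 25.5% of all genes. For CP190 it was found at *Hsp83*, *Hsc70-4* and *Hsf*, against 40% of all genes. Su(Hw) had none at a member, against 6.91% of genes, and mouse Cul4 had none, against 3.68%. The members thus fell into small heat shock genes with Cul4 and no reproducible CP190, *Hsp83*, *Hsc70-4* and the regulator *Hsf* with both, and *Hsp22* with no reproducible site of either. CP190 was called within 1 kb of an *Hsp22* start site in 3 of 3 cul4 kd, 2 of 3 eff kd and 2 of 3 control libraries. The *Hsp70* pair had no call, but its copies are nearly identical and at most 1.72% of the 50-base stretches in the start side of either gene occur once in the genome, so that a missing call is not evidence of a missing site.

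Cul4 peaks covered *Hsp23*, *Hsp26* and *Hsp83* almost from end to end after Cul4 depletion. In control cells they covered the part near the start, and at *Hsp83* separate further peaks lay within the gene or over its 3′ end. The share of the gene under rabbit Cul4 peaks averaged 95.7% ± 7.45 in cul4 kd and 26.2% ± 1.3 in control for *Hsp23*, 96% ± 5.02 in cul4 kd and 34.2% ± 0.997 in control for *Hsp26*, and 93.5% ± 3.61 in cul4 kd and 29.2% ± 1.72 in control for *Hsp83* (SD, n = 3 each). Across all 5471 genes with coverage, the median difference was -2.11 percentage points, cul4 kd minus control. This measure was chosen after the peak lists had been seen.

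*Hsp23*, a small heat shock protein that binds unfolding proteins (FBgn0001224, chr3L:9381882-9382765, plus strand), was covered over 100%, 87.1% and 100% of its length in cul4 kd libraries 1, 2 and 3. Control libraries had 27.5%, 24.9% and 26.4%. In control cells the 3 peaks ended at 9382124, 9382101 and 9382114, inside the gene, while those of cul4 kd cells ended at 9383118, 9382651 and 9383132, so that 2 of 3 ran past its end. All 3 cul4 kd libraries lay above all 3 control libraries, and the difference of 69.5 percentage points gave p = 0.1 in a two-sided exact permutation test, the smallest that 3 against 3 libraries can give.

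*Hsp26*, another small heat shock protein (FBgn0001225, chr3L:9376418-9377427, minus strand), was covered over 97.7%, 90.4% and 100% in cul4 kd libraries, against 35.1%, 33.2% and 34.4% in control libraries. The groups did not overlap (difference 61.8 points, exact permutation p = 0.1). On the distal 50% of the gene, away from its start, the cul4 kd libraries were covered over 95.4%, 80.8% and 100% and every control library over 0%. *Hsp23* showed the same picture, with 100%, 74.2% and 100% of the distal part covered in cul4 kd libraries and 0% in each control library.

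*Hsp83*, the cytosolic Hsp90 (FBgn0001233, chr3L:3192969-3197059, plus strand), is the longest of the genes that were covered more. The share was 93.5%, 89.9% and 97.1% in cul4 kd libraries, against 27.7%, 28.9% and 31.1% in control libraries (difference 64.3 points, exact permutation p = 0.1). In cul4 kd library 3 a single peak ran from 3193738 to 3197304, and in libraries 1 and 2 a pair of peaks filled the same stretch, from 3193806 to 3195120 and 3195191 to 3197353 in library 1. Control cells had shorter peaks there, at 3193939-3194388 and 3196910-3197204 in library 1 and at 3196433-3197298 in library 2. The distal 50% was thus covered over 96.6%, 91.6% and 100% in cul4 kd libraries and over 7.33%, 30.7% and 18.9% in control libraries.

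*Hsp27*, the small heat shock protein gene next to *Hsp23* (FBgn0001226, chr3L:9384063-9385694, plus strand), differed less. Its share was 40.9%, 19.3% and 43.6% in cul4 kd libraries, against 18.5%, 15.4% and 12.8% in control libraries (difference 19 points, exact permutation p = 0.1), and cul4 kd library 2 lay just above the highest control library. Its distal 50% was covered over 0% in all libraries. Only 9.72% of the 50-base stretches of that part occur once in the genome, against 100% of those in the rest of the gene, and the authors removed reads that map to several places, so that peaks over most of it could hardly be called.

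**Figure D1:**
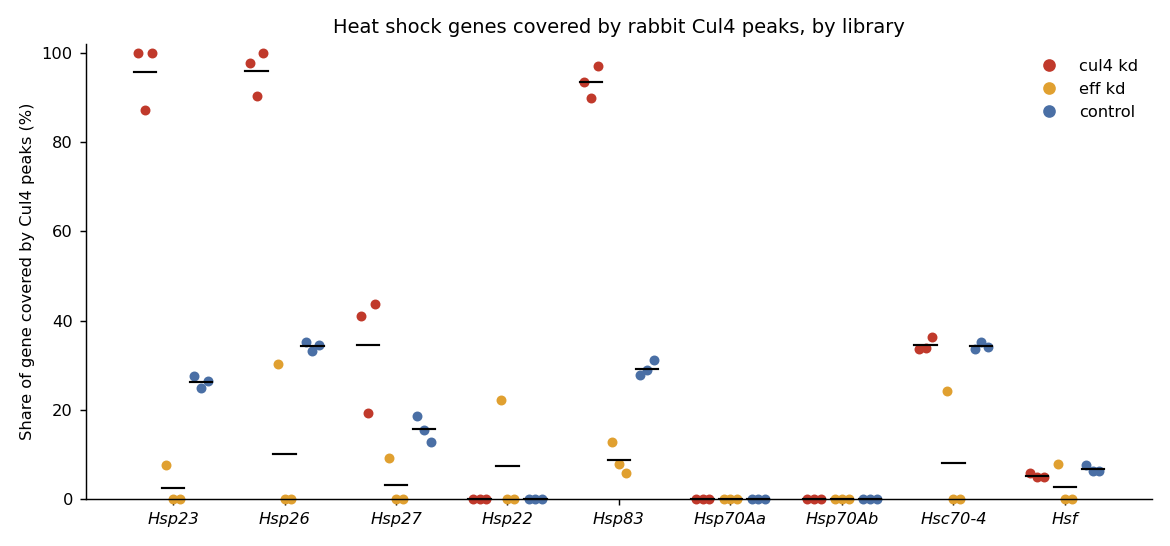
Share of each heat shock gene covered by rabbit Cul4 peaks (y axis, percent of gene length), with 1 point a library and a bar at the mean of 3, for cul4 kd (red), eff kd (yellow) and control (blue). *Hsp23*, *Hsp26* and *Hsp83* reach means of 95.7%, 96% and 93.5% in cul4 kd, above every control library, while *Hsc70-4* has 34.6% in cul4 kd and 34.2% in control.

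The other members set a limit to this. *Hsc70-4*, the constitutive Hsp70 that also acts in clathrin uncoating (FBgn0266599, chr3R:15242687-15246614, plus strand), was covered over 33.7%, 33.8% and 36.3% in cul4 kd libraries and 33.6%, 35.1% and 34% in control libraries, and the groups overlapped (difference 0.339 points, exact permutation p = 0.8). *Hsf*, the heat shock transcription factor (FBgn0001222, chr2R:18130303-18134634, minus strand), had less coverage, at 5.7%, 4.94% and 4.92% in cul4 kd libraries against 7.66%, 6.23% and 6.33% in control libraries (difference -1.55 points, exact permutation p = 0.1). *Hsp22*, a small heat shock protein of mitochondria (FBgn0001223, chr3L:9372931-9374964, plus strand), had no Cul4 peak over it in cul4 kd or control libraries.

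Read against the genome, the 4 members with more coverage stood among few genes. Coverage was higher in all 3 cul4 kd libraries than in any control library at 49 of 5471 genes, or 0.896%, and lower at 2251, or 41.1%. Of the 6 members with coverage, 4 were higher (*Hsp23*, *Hsp26*, *Hsp83* and *Hsp27*) and 1 lower (*Hsf*). A gain of over 10 points was seen at 23 genes, 4 of them members. Ordered by the size of the gain, *Hsp23* was number 2, *Hsp83* 3, *Hsp26* 4 and *Hsp27* 10.

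The number of higher members was 4 when any single library was left out, with 57 to 130 genes of the genome then higher (88 without control library 2 and 130 without cul4 kd library 2, since fewer libraries have to be separated). It was also 4 when only peaks with a -log10 q of at least 20 were counted (36 genes of the genome were then higher), and when the libraries were brought to a matched background (48 genes). On the distal 50% of genes alone the count was 3, without *Hsp27*, and 9 genes of the genome were higher.

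**Figure D2:**
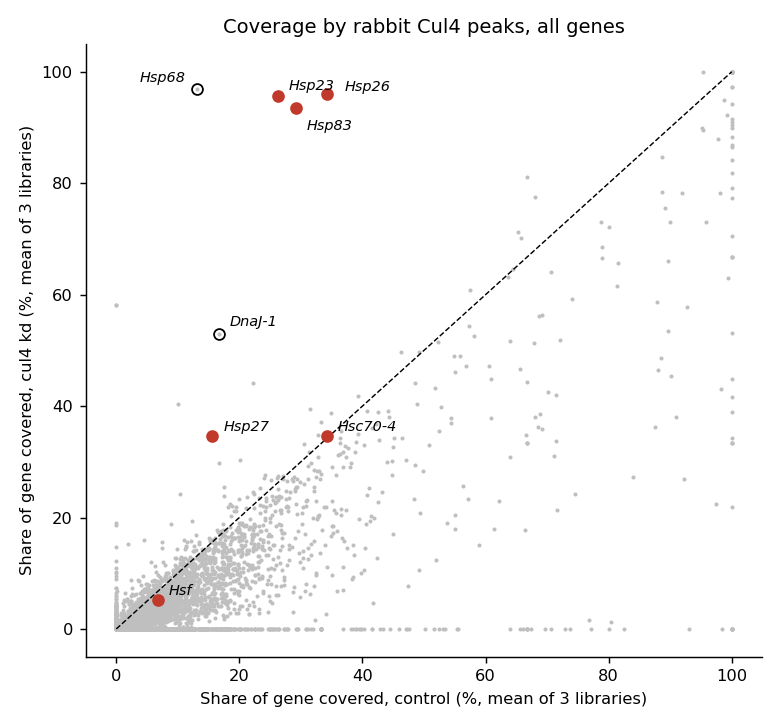
Share of each gene covered by rabbit Cul4 peaks in cul4 kd (y axis, mean of 3 libraries, percent) against control (x axis, mean of 3 libraries, percent) for 5471 genes, with members in red, *Hsp68* and *DnaJ-1* as open circles, other genes in grey and equality as the dashed line. *Hsp23*, *Hsp26* and *Hsp83* stand with *Hsp68* far above the line, *Hsc70-4* on it and *Hsf* below it.

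The gene at the head of that order was another inducible chaperone. *Hsp68*, a heat-inducible Hsp70 (chr3R:24055080-24057310, minus strand), was covered over 96.1%, 95.5% and 99.1% in cul4 kd libraries, against 13.7%, 12.6% and 13.1% in control libraries (difference 83.8 points, exact permutation p = 0.1). *CG6000* and *lncRNA:CR44097*, annotated on the same span (chr3R:24054391-24055092, plus strand), which meets the 3′ end of *Hsp68*, had 63.8%, 41% and 69.8% in cul4 kd libraries and 0% in each control library. *DnaJ-1*, an Hsp40 co-chaperone of Hsp70 (chr3L:5750029-5752189, minus strand), had 47.2%, 24.6% and 87.3% in cul4 kd libraries, against 17.4%, 15.7% and 17% in control libraries (difference 36.3 points, exact permutation p = 0.1). The first 7 places in that order were thus members, *Hsp68* with the overlapping pair at its end, and *DnaJ-1*.

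Of a wider list of chaperones and regulators of heat shock transcription, 32 genes had coverage. Against 0.896% higher and 41.1% lower over all 5471 genes with coverage, 5 of these were higher (*Hsp68*, *DnaJ-1*, *Hsp70Ba*, *lncRNA:Hsromega* and *CCT7*) and 6 lower. The last 3 of the higher ones differed by little. *Hsp70Ba*, a copy of the inducible Hsp70 whose unique stretches were not counted, had 8%, 7.96% and 7.79% in cul4 kd libraries against 0%, 6.11% and 6.11% in control libraries. *lncRNA:Hsromega*, a stress-induced nuclear RNA, had 10.2%, 7.91% and 11% in cul4 kd libraries against 6.63%, 6.61% and 7.01% in control libraries. *CCT7*, a subunit of the cytosolic chaperonin, had 4.56%, 3.9% and 4.99% in cul4 kd libraries against 2.21%, 3.34% and 2.42% in control libraries.

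In cul4 kd cells the peak at the start site reached further into 4 of these genes, and less far on the upstream side. Edges were measured at members alone, so how common such shifts are over the genome is not known. At *Hsp23* its downstream edge lay 1085 ± 273.8 bp after the start site in cul4 kd cells and 231 ± 11.53 bp in control cells (SD, n = 3 each; exact permutation p = 0.1). For *Hsp26* the edge was at 1031 ± 235.6 bp in cul4 kd and 292.7 ± 10.07 bp in control, for *Hsp27* at 476 ± 207.6 bp in cul4 kd and 253.3 ± 46.54 bp in control, and for *Hsp83* at 400.7 ± 5.774 bp in cul4 kd and 297 ± 11.79 bp in control, each with exact permutation p = 0.1 (SD, n = 3 each). *Hsc70-4* had its edge at 1154 ± 57.24 bp in cul4 kd and 1141 ± 30.92 bp in control (SD, n = 3 each; exact permutation p = 0.8), so that no shift was detectable there.

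The upstream edge lay nearer to the start site in cul4 kd cells at all 5 genes, again without a share over the genome. It was at -247.3 bp in cul4 kd and -287.7 bp in control for *Hsp23*, at -161.7 bp in cul4 kd and -334 bp in control for *Hsp26*, and at -440.7 bp in cul4 kd and -614.7 bp in control for *Hsc70-4*. Peaks of rabbit Cul4 were also narrower in cul4 kd over the whole lists, with median widths of 355, 339 and 375 bp in cul4 kd libraries and 475, 406 and 416 bp in control libraries. The inward shift thus went along with narrower peaks genome-wide, and its part in the shift at these genes was not tested.

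**Figure D3:**
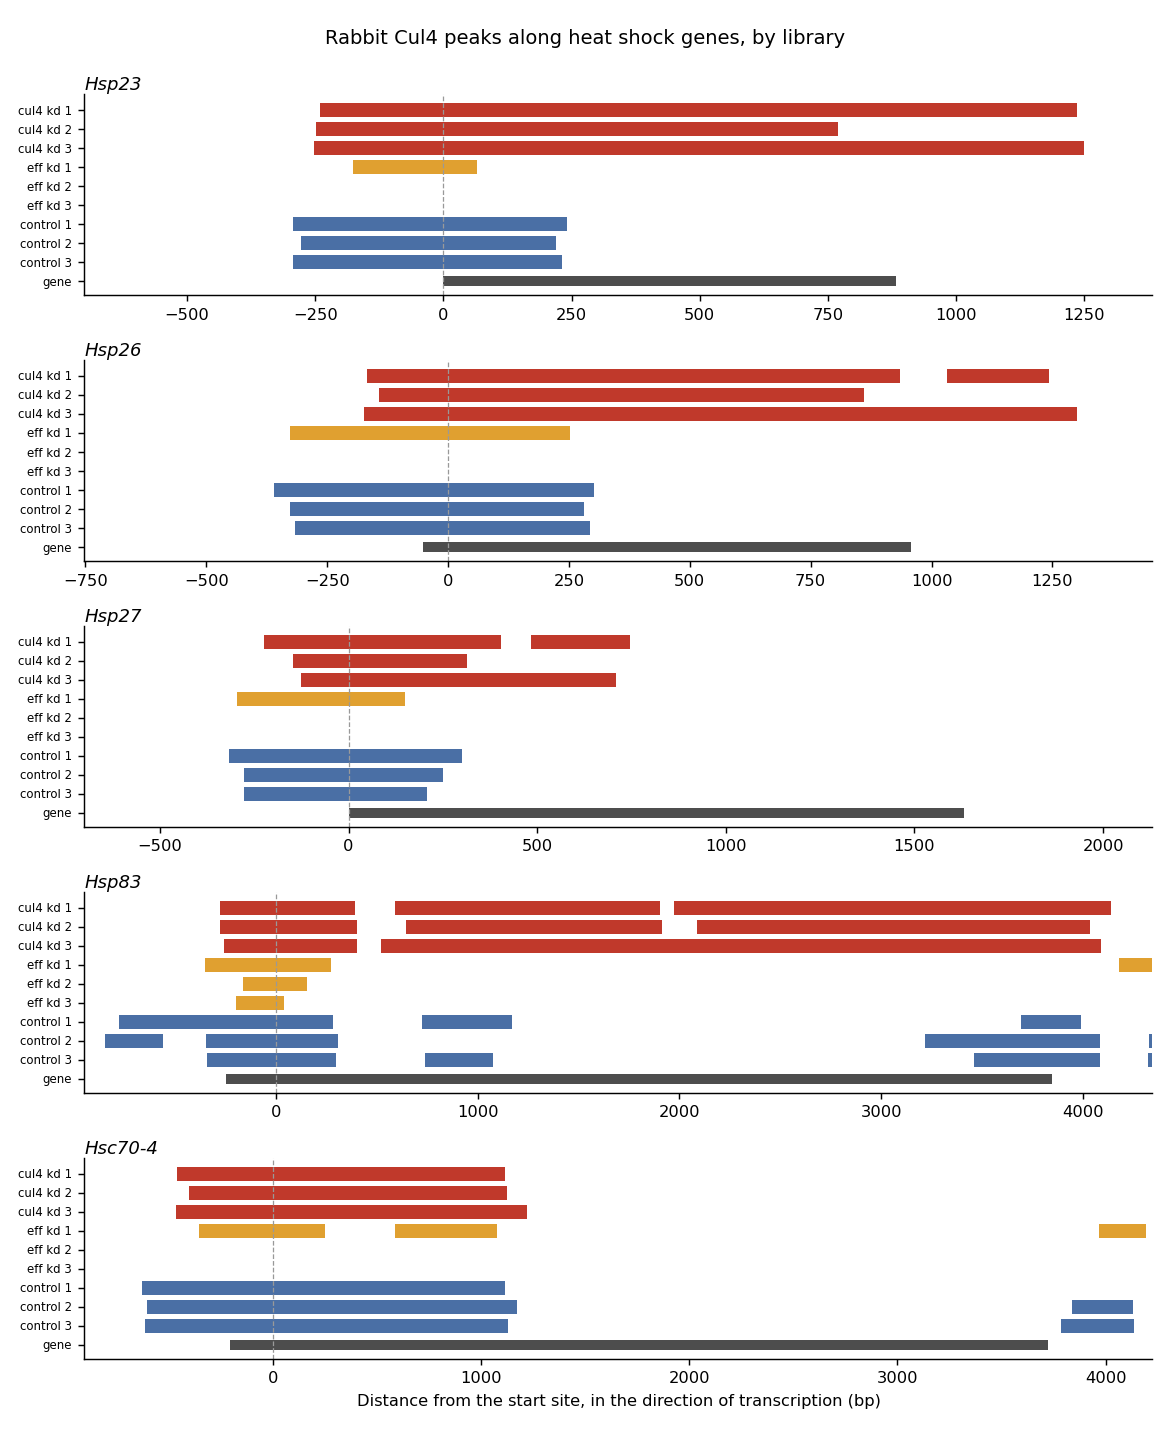
Rabbit Cul4 peaks (bars) in each library along 5 heat shock genes (dark bar: gene span), by distance from the start site in the direction of transcription (x axis, bp), for cul4 kd (red), eff kd (yellow) and control (blue). Cul4 kd peaks run through *Hsp23*, *Hsp26* and *Hsp83*. Control peaks stop within 307 bp after the start of those genes, apart from separate further peaks within *Hsp83* or over its 3′ end. At *Hsc70-4* the downstream edges of cul4 kd and control coincide.

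The height of the Cul4 peaks was compared as the highest fold of any peak in a merged region. A longer span leaves more room for a high value, so this measure is not independent of span. Fold enrichment over background (the authors' column, on a log2 scale, each library centred on its median) was tested with limma over the 2033 Cul4 regions called in all 6 cul4 kd and control libraries, where 208 (10.2%) passed an adjusted p of 0.05 as higher and 302 (14.9%) as lower. Of the 10 member regions, 2 were higher and 1 lower, and their median change was 0.173 against 0.00354 over all regions tested.

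The region along *Hsp83* and past its 3′ end (chr3L:3193738-3197353) had folds of 4.87, 4.88 and 3.88 in cul4 kd libraries and 2.94, 3.49 and 3.52 in control libraries. Its log2 change was 0.463 (SE 0.144, limma adjusted p = 0.019). These folds come from different places in the region. Their summits lay at 3194024, 3196648 and 3194061 in cul4 kd libraries and at 3197070, 3196783 and 3197214 in control libraries. The summits of control libraries 1 and 3 lay past the end of the gene at 3197059. The change is thus not one at a fixed place within *Hsp83*. The region at *Hsp23* had folds of 5.94, 7.92 and 8.04 in cul4 kd libraries and 5.44, 5.14 and 5.98 in control libraries, and rose by 0.404 (SE 0.14, limma adjusted p = 0.0341). The groups did not overlap at the *Hsp83* region, and at *Hsp23* the lowest cul4 kd library lay just under the highest control library. The region at the start of *Hsc70-4* had folds of 5.27, 5.48 and 5.75 in cul4 kd libraries and 6.7, 8 and 8.59 in control libraries, and fell by 0.478 on the log2 scale (SE 0.138, limma adjusted p = 0.013).

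Each of these calls leaned on single libraries. The *Hsp83* call was lost without control library 1 or 3 or without cul4 kd library 1 or 2 (highest limma adjusted p = 0.0909). The *Hsp23* call held in 1 of 6 fits with a library left out, the one without cul4 kd library 1, and had an adjusted p of 0.112 at the highest; without centring it was 0.0745. The *Hsc70-4* call was lost without control library 3 or cul4 kd library 2 (highest adjusted p = 0.0841). At the starts of *Hsp26*, *Hsp27*, *Hsp83* and *Hsf* the log2 changes of -0.193 (SE 0.156), 0.302 (SE 0.157), -0.291 (SE 0.145) and 0.145 (SE 0.144) did not pass, at limma adjusted p of 0.384, 0.161, 0.144 and 0.486.

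No member region was lost after Cul4 depletion. All 10 Cul4 regions called in all 3 control libraries were also called in all 3 cul4 kd libraries, while over all 3692 such regions 55.1% were kept in this way and 20.3% were called in no cul4 kd library. The percentile of fold within its own list was 90.2, 75.8 and 73.9 in cul4 kd and 88.8, 93.4 and 92.5 in control at the *Hsp83* start, and 83.3, 75.1 and 81.9 in cul4 kd and 91.6, 95 and 94.3 in control at *Hsc70-4*. The groups overlapped at *Hsp83* and stood apart at *Hsc70-4* (exact permutation p = 0.2 and p = 0.1).

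After Eff depletion, Cul4 peaks covered less of 5 members. The windows held 13, 1 and 1 Cul4 peaks in eff kd libraries 1, 2 and 3, against 12, 14 and 14 in control libraries, so that library 1 had no fewer. Coverage was lower in all 3 eff kd libraries than in any control library at *Hsp23*, *Hsp26*, *Hsp27*, *Hsp83* and *Hsc70-4*, against 38.3% of 5673 genes with coverage, and higher at none, against 0%. *Hsp26* had 30.3%, 0% and 0% in eff kd libraries 1, 2 and 3, *Hsc70-4* 24.1%, 0% and 0%, and *Hsp23* 7.58%, 0% and 0%, beside the control values above. *Hsp83* was the one member with a peak in every eff kd library, at 12.8%, 7.85% and 5.77%. Of the mean differences the largest was -26.2 points at *Hsc70-4* and the smallest of the 5 was -12.5 points at *Hsp27* (exact permutation p = 0.1 each), and at matched background the *Hsp27* difference was -6.17 points and its groups no longer stood apart.

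At *Hsp22*, eff kd library 1 covered 22.1% of the gene and libraries 2 and 3 covered 0%, as did all control libraries. That 1 peak was weak, with a fold of 2.09 at percentile 3.41 of its list. Of the 10 control regions, 1 was kept (the *Hsp83* start) against 5.23% of 3692, and 3 were lost against 29.2%: the regions at *stau*, a neighbour of *Hsf*, along *Hsp83* and past its 3′ end, and at *CG32276*, a neighbour of *Hsp83*. Both counts are near the share over all regions. They rest on libraries 2 and 3 with their short lists, since library 1 alone called 7 of the 10, and 9 counted as lost without library 1. The number of peaks was low in both of those libraries, while the background was low in library 3 alone, and the part of either in the loss was not tested.

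At the *Hsp83* start the fold was 3.63, 3.09 and 4.63 in eff kd libraries and 6.02, 7.19 and 7.53 in control libraries. The groups did not overlap, yet with each library centred on its median the log2 change was -0.0835 (SE 0.205, limma adjusted p = 0.724). It was the only member region among the 193 called in all 6 libraries, of which 27.5% were higher and 23.8% lower. Without centring, the median change of those 193 regions was -0.689, 0 were higher and 89 lower, and the *Hsp83* start had -0.883 (limma adjusted p = 0.00537).

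The *Hsp70* pair gave no Cul4 peak over either gene. *Hsp70Aa* (FBgn0013275, chr3R:11954163-11956544, minus strand) and *Hsp70Ab* (FBgn0013276, chr3R:11958535-11960909, plus strand) encode the major inducible Hsp70, in nearly identical copies. Only 1.11% of the 50-base stretches of *Hsp70Aa* and 0.817% of those of *Hsp70Ab* occur once in the genome, so that binding over the genes could hardly be read from uniquely mapped reads in any library. Just past the 3′ end of *Hsp70Ab*, a Cul4 peak at chr3R:11960940-11961228 was called in cul4 kd libraries 1 and 3 (fold 4.9 and 3.54) and in no eff kd or control library. It did not count as gained, since cul4 kd library 2 lacked it.

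CP190 flanked the pair on both sides, at the promoters of *Cad87A*, a cadherin gene, and *aurA*, the Aurora A kinase gene. The 201 bases around the control summit of each site are shown because CGATA, a short motif of the boundary factor BEAF-32, stands in both, in capitals on either strand, at chr3R:11949137-11949337 and chr3R:11962961-11963161 (plus strand, dm6):
Cad87A: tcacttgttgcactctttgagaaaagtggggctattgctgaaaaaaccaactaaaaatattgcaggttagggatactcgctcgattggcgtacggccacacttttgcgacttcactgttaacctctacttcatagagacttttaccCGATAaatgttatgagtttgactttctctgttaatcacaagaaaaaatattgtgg
aurA: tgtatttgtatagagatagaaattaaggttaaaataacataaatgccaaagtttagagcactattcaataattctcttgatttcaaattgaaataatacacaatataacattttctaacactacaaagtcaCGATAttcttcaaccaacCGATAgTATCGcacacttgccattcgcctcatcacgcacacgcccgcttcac

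CGATA had 1 match at the *Cad87A* site and 3 at the *aurA* site. Within 100 bp of the summit it was in 6 of the 12 reproducible CP190 sites in member windows and in 37% of 7113 CP190 sites. The full BEAF-32 motif TATCGATA was in none of the 12 and in 7.96% of all sites.

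At *Cad87A* (chr3R:11948978-11949830) CP190 was lower after both knockdowns. The folds were 6.4, 7.17 and 5.63 in cul4 kd libraries, 5.92, 5.48 and 6.29 in eff kd libraries and 8.53, 6.06 and 7.73 in control libraries. The percentiles within the own list were 40, 35.2 and 8.02 in cul4 kd, 32.1, 27.3 and 36.3 in eff kd and 61.3, 45.4 and 57.7 in control, so that all knockdown libraries lay under all control libraries. The log2 change was -0.483 after eff kd (SE 0.0973, limma adjusted p = 0.00422), which passed with any 1 library left out, and -0.564 after cul4 kd (SE 0.161, limma adjusted p = 0.0415), which passed in 1 of 6 such fits, the one without cul4 kd library 1. Without centring the changes were -0.323 (limma adjusted p = 0.19) after eff kd and -0.21 (limma adjusted p = 0.462) after cul4 kd.

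At *aurA* (chr3R:11962693-11963363), on the other side of the pair, CP190 was higher after eff kd. The folds were 9.7, 8.86 and 10.8 in eff kd libraries and 8.18, 5.5 and 7.04 in control libraries, all eff kd libraries lying above all control libraries, and the log2 change was 0.358 (SE 0.108, limma adjusted p = 0.0272). The call was lost without control library 2 or 3 or eff kd library 1 or 3 (highest limma adjusted p = 0.0881). After cul4 kd the folds were 8.9, 9.32 and 7.56 and the change was -0.0257 (SE 0.167, limma adjusted p = 0.932), and 0.329 without centring (limma adjusted p = 0.235).

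Among the genes that lie at least in part within 20 kb of the pair, CP190 was called within 1 kb of a start site in all 9 libraries at *Cad87A*, *CG31211*, *CG3281*, *aurA*, *CG12213*, *GC1* and *Tango9*, and in no library at *Hsp70Aa*, *Hsp70Ab*, *GC2*, *CG10005*, *lncRNA:CR44135*, *CG18547* and *CG12224*. Su(Hw) was called at none of them. Cul4 was called in all 3 control libraries at *Tango9*, a Golgi protein gene, and in 0 of 3 libraries of either knockdown.

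**Figure D4:**
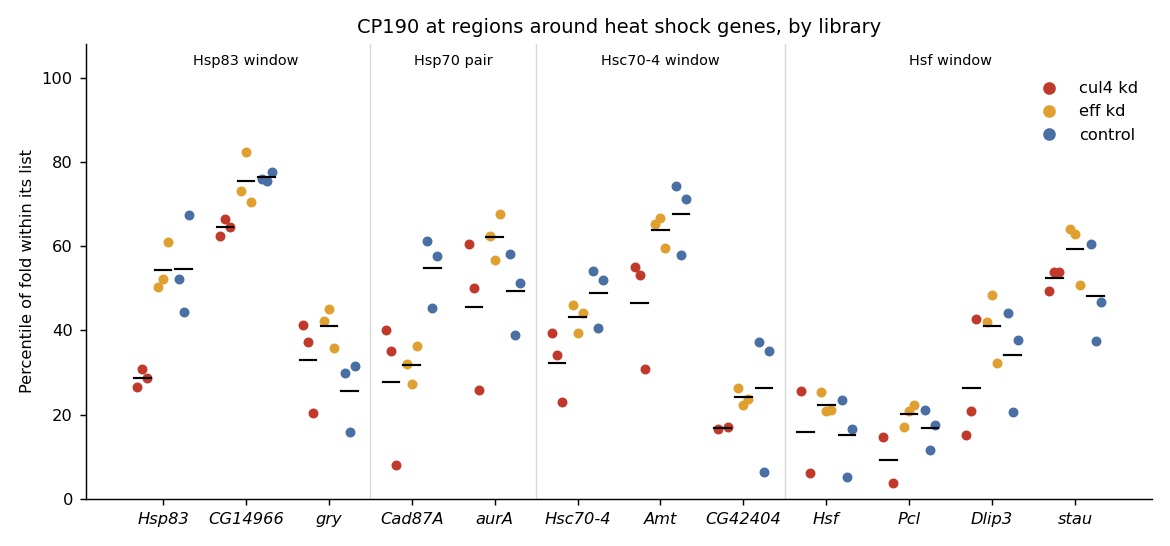
Percentile of CP190 fold enrichment within its own list (y axis) at the 12 regions in member windows called in all 3 control libraries, named by the nearest start site and grouped by window (x axis), with 1 point a library and a bar at the mean, for cul4 kd (red), eff kd (yellow) and control (blue). In percentile, all 3 cul4 kd libraries lie under all control libraries at *Hsp83*, *CG14966*, *Cad87A*, *Hsc70-4* and *Amt*. The folds themselves overlap between these groups at each of them. At *CG14966* they were 9.21, 13.3 and 15.8 in cul4 kd libraries and 10.6, 10.4 and 10.6 in control libraries. The share of all CP190 regions that separate in this way was not computed. A missing point is a library without a call.

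The CP190 regions of the members were mostly called again after either knockdown, as were those of the genome. All 12 regions called in all 3 control libraries were kept after eff kd, against 96.3% of 7114, and 0 were lost, against 1.08%. After cul4 kd, 9 of 12 were kept, against 83.3%, and 0 were lost, against 2%. The other 3, at *Hsf*, at *Pcl*, the Polycomb-like gene beside it, and at *CG42404*, were absent only from the shallow library 3. These shares are near those over all regions. No region was gained in either comparison. Coverage of a member by CP190 was lower in all 3 cul4 kd libraries at *Hsp83* and *Hsc70-4* (10.2% of 8414 genes were) and higher at none (0.0713%), with 8.43%, 7.38% and 7.85% of *Hsp83* covered in cul4 kd libraries against 10.5%, 10% and 10.7% in control libraries.

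At the promoter of *Hsp83* (chr3L:3192294-3193405) CP190 had percentiles of 26.6, 30.8 and 28.6 in cul4 kd, 50.2, 52.2 and 60.9 in eff kd and 52.2, 44.3 and 67.4 in control. The cul4 kd libraries lay under all others, and the eff kd and control libraries overlapped. The log2 change after cul4 kd was -0.534 (SE 0.139, limma adjusted p = 0.0302), and it was lost in 4 of 6 fits with a library left out (highest limma adjusted p = 0.167), with quantile normalization (-0.45) and without centring (-0.18, limma adjusted p = 0.541). After eff kd it was 0.0567 (SE 0.121, limma adjusted p = 0.751). Thus at *Hsp83* after Cul4 depletion the CP190 promoter peak had a lower fold relative to its list while Cul4 peaks covered more of the gene. Downstream of *Hsp83*, CP190 at *gry* rose after eff kd, with folds of 6.95, 7.3 and 6.25 in eff kd libraries against 5.45, 4 and 5.22 in control libraries (0.332, SE 0.0945, limma adjusted p = 0.0218). That call was lost without control library 3, eff kd library 1 or eff kd library 2 (highest limma adjusted p = 0.0795), and without centring (0.492, limma adjusted p = 0.0526).

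Over all CP190 regions called in all 6 libraries of a comparison, 961 (14%) were higher and 1142 (16.7%) lower after eff kd, and 494 (8.33%) higher and 567 (9.56%) lower after cul4 kd. Of the member regions tested, 2 of 12 were higher and 1 lower after eff kd, and 0 of 9 higher and 2 lower after cul4 kd. Their median log2 changes were 0.0616 after eff kd and -0.16 after cul4 kd, against -0.0348 after eff kd and -0.0103 after cul4 kd over all regions. These splits depend on the centring. Without it the medians moved to 0.126 and 0.344, with 1520 regions higher and 328 lower after eff kd and 1487 higher and 44 lower after cul4 kd.

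In the 67B cluster CP190 was weak. Its regions at *Fdx1*, *Hsp67Bc*, *asRNA:CR43481* and *Hsp23* were called in control libraries 1 and 3 and not in the smaller list of control library 2, with percentiles of 2.89 to 26.7. At *Hsp23* (chr3L:9381606-9381908), over the printed promoter, CP190 was called in 0 of 3 cul4 kd, 0 of 3 eff kd and 2 of 3 control libraries. At *asRNA:CR43481*, which ends close to *Hsp23*, it was called in 0 of 3 cul4 kd, 1 of 3 eff kd and 2 of 3 control libraries. The other 2 were called at least as often in the knockdowns, *Fdx1* in 2 of 3 cul4 kd, 3 of 3 eff kd and 2 of 3 control libraries, and *Hsp67Bc* in 3 of 3 cul4 kd, 2 of 3 eff kd and 2 of 3 control libraries. The *Hsp67Bc* region also lay over an annotated start site of *Hsp22*.

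Su(Hw) was found in the windows of one member only, downstream of *Hsc70-4*, at *Amt*, an ammonium transporter gene (chr3R:15249214-15249986), and at *CG42404* (chr3R:15251401-15252061), both shared with CP190. The 201 bases around the *CG42404* summit (chr3R:15251602-15251802, plus strand, dm6) are shown since they hold the Su(Hw) core GCATACTT, here on the minus strand and in capitals:
CG42404: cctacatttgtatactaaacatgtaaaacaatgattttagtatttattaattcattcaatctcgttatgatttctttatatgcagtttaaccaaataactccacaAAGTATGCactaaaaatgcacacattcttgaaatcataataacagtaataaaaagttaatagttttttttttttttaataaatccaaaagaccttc

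The core is in 44.3% of 3740 Su(Hw) sites within 100 bp of the summit, and at *Amt* these letters were not in the window. Both regions were kept after either knockdown. Over 3718 regions 91.8% were kept and 1.45% lost after eff kd, and 79.7% were kept and 7.96% lost after cul4 kd.

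At *Amt* Su(Hw) had percentiles of 33, 28.6 and 18.4 in cul4 kd, 58.3, 62.7 and 49.6 in eff kd and 68.2, 58 and 63.5 in control. The cul4 kd libraries lay under all control libraries (exact permutation p = 0.1), and the folds of 7.24, 7.33 and 4.73 in cul4 kd against 9.59, 8.57 and 8.43 in control libraries gave a log2 change of -0.543 (SE 0.11, limma adjusted p = 0.00439). The call held with any 1 library left out, and without centring it was -0.488 (limma adjusted p = 0.0502). After eff kd the change was -0.0729 (SE 0.102, limma adjusted p = 0.62), and 0.0838 without centring (limma adjusted p = 0.882). At *CG42404* the changes were -0.253 (SE 0.166, limma adjusted p = 0.266) after cul4 kd and -0.212 (SE 0.15, limma adjusted p = 0.3) after eff kd.

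Over all Su(Hw) regions tested, 425 (14.3%) were higher and 425 (14.3%) lower after cul4 kd, and 525 (15.4%) higher and 504 (14.8%) lower after eff kd. Without centring the splits were 220 higher and 115 lower after cul4 kd and 376 higher and 40 lower after eff kd, with a median change of 0.0239 and 0.111.

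*Hsp83* and *Hsc70-4* were compared with all other genes by the mean absolute difference in percentile over the 27 libraries of CP190, Su(Hw) and rabbit Cul4, taking 0 where no peak was called. Closest to *Hsp83* were *Kdm2* at 5.92 percentile points, *bin3* at 6.47 and *CG9205* at 6.48. Closest to *Hsc70-4* were *CG42516*, *Pabp2* and *Pbp49*, all on chromosome arm 2R and each at 3.73. Genes that share the same promoter peaks get equal values, so these need not be 3 separate matches. Whether they share peaks was not tested. The points share their libraries, and the order is a description only.

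In the wider chaperone and heat shock list, 53 genes were annotated. A reproducible CP190 promoter site was found at 35, a rabbit Cul4 site at 27, a Su(Hw) site at 0 and a mouse Cul4 site at 1. Over all genes the shares were 40% for CP190, 25.5% for rabbit Cul4, 6.91% for Su(Hw) and 3.68% for mouse Cul4. All 5 Hsp40 genes had both CP190 and Cul4, the 9 genes of the Hsp90 family and its co-chaperones had CP190 at 9 and Cul4 at 5, and the 12 chaperonin genes had CP190 at 9 and Cul4 at 4. Of the 6 other small heat shock protein genes CP190 was at 0 and Cul4 at 1, and of the 5 other inducible Hsp70 genes each was at 1. Those 5 include the *Hsp70B* copies, whose unique stretches were not counted. A missing call there is not evidence of a missing site.

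CP190 fell at *Hsc70-3*, the Hsp70 of the endoplasmic reticulum, with log2 changes of -0.688 after cul4 kd (SE 0.151, limma adjusted p = 0.0182) and -0.391 after eff kd (SE 0.113, limma adjusted p = 0.0231). It fell most at *Clamp*, which binds GA-rich promoters, with changes of -1.29 after cul4 kd (SE 0.133, limma adjusted p = 0.00371) and -1.09 after eff kd (SE 0.106, limma adjusted p = 0.000264). *STUB1*, a chaperone-linked ubiquitin ligase, *CCT5*, a chaperonin subunit, and *CG7945* were also lower after both, by changes of -0.292 to -0.691. *Nelf-A*, a subunit of the factor that holds paused polymerase, was higher after both, at 0.655 after cul4 kd (SE 0.198, limma adjusted p = 0.0484) and 0.638 after eff kd (SE 0.109, limma adjusted p = 0.002).

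In all, 1 gene was higher and 6 lower of 30 tested for CP190 after cul4 kd, the sixth being *Hsp60A* at -0.413, against 8.33% and 9.56% of all regions. After eff kd 3 were higher and 6 lower of 35, among them *Cdc37* at 0.314, *Dpit47* at 0.498 and *lncRNA:Hsromega* at -0.528, against 14% and 16.7%. As over the genome, the split turned without centring, to 5 higher and 1 lower after cul4 kd and 5 higher and 4 lower after eff kd. The lower calls at *Hsc70-3*, *STUB1*, *CG7945*, *CCT5* and *Hsp60A* after cul4 kd and at *Hsc70-3* and *CCT5* after eff kd were then lost, while those at *Clamp* held after both knockdowns (-0.934 after cul4 kd, limma adjusted p = 0.000808, and -0.932 after eff kd, limma adjusted p = 1.58e-05). With a library left out in turn, the CP190 calls after cul4 kd held in 6 of 6 fits at *Clamp*, 4 at *Hsc70-3*, 3 each at *STUB1* and *CG7945*, 2 at *CCT5* and 1 each at *Hsp60A* and *Nelf-A*. Those after eff kd held in 6 of 6 at *Clamp*, *STUB1*, *CG7945*, *Dpit47* and *Nelf-A*, 3 at *lncRNA:Hsromega*, 2 each at *Hsc70-3* and *Cdc37* and 1 at *CCT5*. The CP190 region of *CCT3* was lost after cul4 kd, against 2% of all regions. Cul4 fell at *Hsc70-3* after cul4 kd, with a log2 change of -1.03 (SE 0.149, limma adjusted p = 1.34e-05), and at *CCT5* and *CG14207*, with -0.528 and -0.362, the change at *CG14207* not passing without centring (limma adjusted p = 0.0873). It rose at *Hsc70-5*, the mitochondrial Hsp70, by 0.587 (SE 0.136, limma adjusted p = 0.00247), so that 1 gene was higher and 3 lower of 21, against 10.2% and 14.9% of all regions. Cul4 regions were lost at *CG1416*, *mrj*, *Trl* and *Spt5* after cul4 kd, where 20.3% of all regions were lost. *Trl* also had 1 promoter region that was kept. After eff kd they were lost at *Hsp68*, *Cdc37*, *CG1416*, *CG7945*, *Clamp* and *Spt5*, where 29.2% of all regions were. Of the list, 27 genes had a reproducible rabbit Cul4 promoter site in control cells, and these are genes, while the shares are of regions.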

How the data were processed

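ChIP-seq of CP190, Su(Hw) and Cul4 was sequenced as single-end 50-base reads. The authors trimmed reads with cutadapt 3.4, mapped them with Bowtie2 2.4.2, removed multimapping reads with SAMtools 1.12 and duplicates with Picard, and called peaks against input with MACS2 2.2.7.1 at a q cutoff of 1e-09. The deposited lists hold, per peak, the fold enrichment (a ratio of reads at the summit to background), −log10 p and −log10 q (the authors' p-value and q-value) and a score. No reads were used, so the authors' DiffBind test could not be run. Reads at the summit and background were computed from fold and p, and met the deposited −log10 p within 0.01 for every peak of 28 libraries, but for 7.724% of peaks in library 3 of rabbit Cul4 in cul4 kd and 4.392% in library 3 of Su(Hw) in cul4 kd, whose read numbers are approximate.

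Peaks of the 9 libraries of a factor were merged at 1 bp of overlap. Each library gave the peak of highest fold in a region. A region was lost if called in all 3 control and no knockdown libraries, gained if the reverse, and kept if called in all 6. Log2 fold was compared with limma 3.58.1 (R 4.3.3), with Benjamini-Hochberg adjustment over all regions tested and a threshold of 0.05, after centring on library medians. Percentiles, coverage and edges went through an exact permutation test (two-sided, smallest p 0.1 for 3 against 3). Genes followed the Ensembl annotation of dm6, with 1-based coordinates. Other steps used Python 3.11.15, pandas 2.3.3 and numpy 2.4.6. Scripts were tested on simulated data.

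Text names all members, the nearest gene to each of their regions, listed chaperone genes with a lost, gained or limma-passing promoter region, and the 3 genes most like a member. Members and lists were chosen with earlier results of these data known, and gene coverage after seeing the lists.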

Additional observations from a re-analysis of the deposited data

How the results depend on the processing

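More coverage of 4 members by Cul4 after cul4 kd, and less of 1, was found in every alternative run except the distal 50% of genes (3 and 0); after eff kd, less coverage ranged from 4 to 6 members over the other alternatives and was 1 on the distal 50%. Calls from few libraries moved more. With a difference of 2 libraries in place of 3, lost member regions were 1 for CP190 after eff kd, 2 for CP190 after cul4 kd, 9 for Cul4 after eff kd and 2 for Cul4 after cul4 kd, and 1 Cul4 region was gained after cul4 kd. With 2 of 3 control libraries, 5 members had a CP190 promoter site, *Hsp22* and *Hsp23* being added. In windows of 2 kb, 0 Su(Hw) regions were kept after either knockdown, and in windows of 10 kb 1 was lost after cul4 kd. With a -log10 q of at least 20, 1 Su(Hw) region was kept after cul4 kd and 0 Cul4 regions after eff kd, and at matched background 0 Cul4 regions after eff kd.

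Member regions past the limma threshold numbered 5 for CP190 after eff kd, 1 for CP190 after cul4 kd and 1 for Cul4 after eff kd with quantile normalization. Without centring they were 0 for CP190 and 0 for Su(Hw) after cul4 kd and 1 for Cul4 after eff kd, and over all regions 416 for Su(Hw) after eff kd and 335 after cul4 kd. With regions called in at least 2 libraries of each group they were 1 for CP190 after cul4 kd and 1 for Cul4 after eff kd, with 291 over all regions for the last. The cause of these moves was not tested.

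With a library left out in turn, lost member regions ranged from 0 to 1 for CP190 after eff kd, 0 to 2 for CP190 after cul4 kd, 3 to 9 for Cul4 after eff kd and 0 to 2 for Cul4 after cul4 kd, where gained ones ranged from 0 to 1. CP190 promoter sites ranged from 3 to 5. Limma-passing member regions ranged from 1 to 4 for CP190 after eff kd, 0 to 4 for CP190 after cul4 kd, 0 to 1 for Su(Hw) after eff kd, 0 to 1 for Cul4 after eff kd and 0 to 2 for Cul4 after cul4 kd. Over all regions the ranges were 1118 to 2526 for CP190 after eff kd, 86 to 2135 for CP190 after cul4 kd, 521 to 956 for Su(Hw) after eff kd, 478 to 1258 for Su(Hw) after cul4 kd, 77 to 269 for Cul4 after eff kd and 327 to 483 for Cul4 after cul4 kd. The lowest CP190 count, 86, was without control library 3 and the highest, 2135, without cul4 kd library 1.

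Whether the replicate numbers pair the samples is not known, and the main fits used no pairing. Deviations of same-numbered libraries correlated from -0.566 to 0.536, which neither shows nor excludes pairing. A fit with the number as a block gave 2 member regions for Cul4 after cul4 kd, without *Hsp23*, and 4 for CP190 after eff kd, and over all regions 1385 for CP190 after cul4 kd and 448 for Cul4 after cul4 kd. None of the 9 member regions past the limma threshold turned its sign under an alternative, but 14 of the 27 others did, 7 of them without centring. Of those with a value in the text, CP190 at *aurA* after cul4 kd was 0.329 without centring, 0.0748 with quantile normalization and -0.147 to 0.183 with a library left out, and Su(Hw) at *Amt* after eff kd was 0.0838 without centring. With a library left out, CP190 at *Hsp83* after eff kd ranged from -0.0433 to 0.169, Cul4 at *Hsp83* after eff kd from -0.623 to 0.0768 and Cul4 at *Hsf* after cul4 kd from -0.02 to 0.26. The CP190 medians over all regions also turned without centring. Depth limits the thin lists most, since a peak missing there is not shown to be absent.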
